A study of Homo sapiens with 3 samples.

Results

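The genes described here encode the proteins of the mitochondrial ribosome. They were chosen by name from the annotation, as protein-coding genes of GENCODE release 44 whose symbol is MRPL or MRPS followed by a digit, without a hyphen, and no measured value entered the choice. Of the 62754 genes in the deposited table, 78 met this rule, 49 with an MRPL and 29 with an MRPS symbol. The data come from MCF10A cells, an immortalised, non-tumorigenic human breast epithelial line. All 3 samples are replicates of 1 condition. The cells carried an empty retroviral vector of a doxycycline-inducible expression system with no gene of interest, had been selected with puromycin, received no doxycycline or other treatment and belonged to a single batch, so the set holds no treated or parental group to compare with. Whether the replicates were separate cultures is not stated, and the spread given below may therefore be technical.

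Mitochondria keep their own ribosome, which makes the few hydrophobic respiratory chain proteins that the mitochondrial genome encodes. Its ribosomal RNAs come from that genome, whereas its proteins are encoded in the nucleus, made in the cytosol and imported. Some of these proteins descend from the ribosomal proteins of bacteria, and others are found only in mitochondrial ribosomes. The large subunit holds the peptidyl transferase centre and the exit tunnel, and the small subunit binds the messenger RNA and reads its codons.

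Levels are given in TPM, a read count divided by transcript length and scaled to the same total in each library. The reads on genes, recovered from the TPM values, numbered 15273329, 15446347 and 11166546 in replicates 1, 2 and 3. The shallowest library also stood apart in composition, since the TPM of nuclear protein-coding genes summed to 85.5% of the library in replicate 1 and 84.1% in replicate 2 but to 73.6% in replicate 3. Of the genes listed as markers of basal breast epithelium, 6 of 6 were at or above 1 TPM (against 56.7% of all protein-coding genes). They were KRT5, KRT14, KRT17, TP63, EGFR and CDH1, of which EGFR and CDH1 are not restricted to basal cells. A level of at least 1 TPM was also reached by 1 of 4 luminal (GATA3, 12.8 TPM), 2 of 5 fibroblast, 1 of 4 immune and 1 of 3 endothelial markers. The luminal list summed to between 10.5 and 15.1 TPM. The summed TPM of each of the fibroblast, immune and endothelial lists lay between 1.15 and 14.8 in every replicate.

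Nearly all of the mitochondrial ribosomal protein genes were expressed. A mean of at least 1 TPM was reached by 76 of 78 (97.4%, against 56.7% of the 20046 protein-coding genes), at least 10 TPM by 70 (89.7% against 41.7%), and at least 100 TPM by 29 (37.2% against 7.86%). The exceptions below 1 TPM were MRPS24 and MRPL53. The median of the 78 means was 67.3 TPM, compared with 24.9 TPM over all protein-coding genes at or above 1 TPM. Together the 78 genes took 7156, 6958 and 6231 TPM in the 3 replicates, which is 0.716%, 0.696% and 0.623% of each library. They lie on 21 chromosomes, with 8 each on chromosomes 1, 2 and 17, and encode proteins of 65 to 439 residues with a median of 195.

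**Figure D1:**
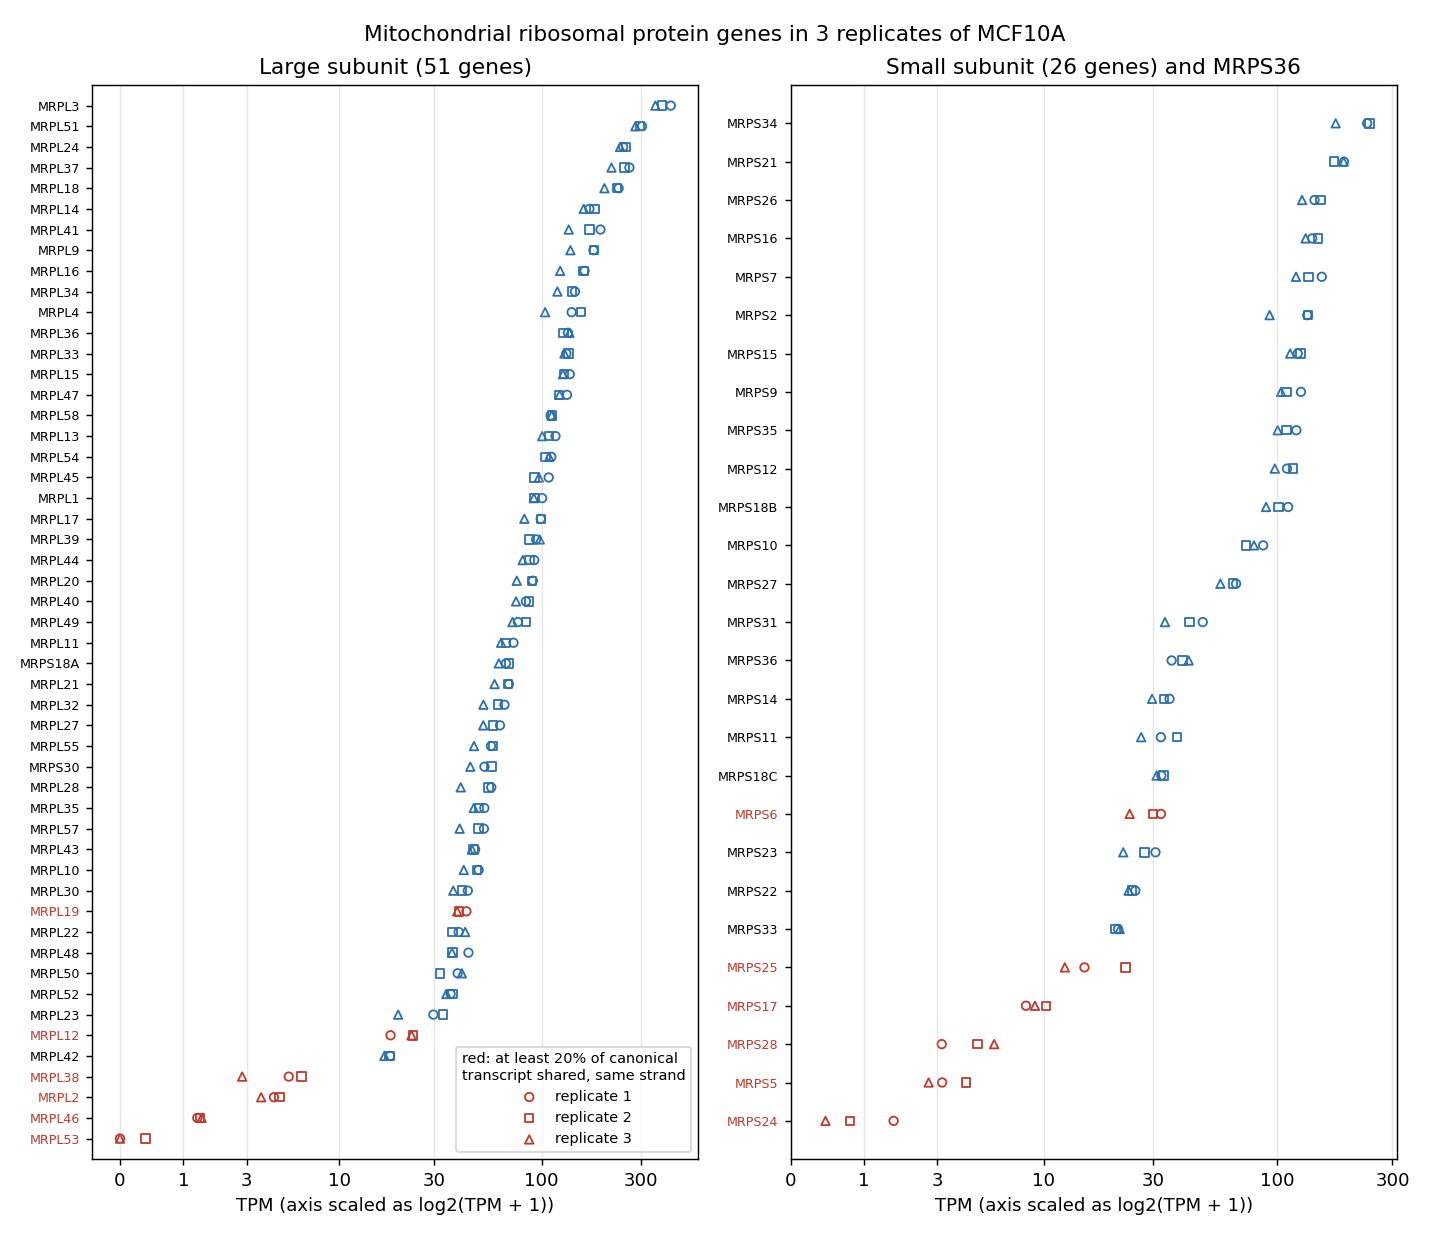
TPM of each of the 78 genes in replicates 1 (circles), 2 (squares) and 3 (triangles), ordered by mean within the large subunit (left) and within the small subunit with MRPS36 (right); the x axis is scaled as log2(TPM + 1). Genes with at least 20% of the canonical transcript inside exons of another gene on the same strand are red; they take the lowest 4 places on the left and the lowest 5 on the right, with MRPL12, MRPL19 and MRPS6 higher up, and the triangle of replicate 3 is the lowest point for 61 genes.

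By the known place of the protein, 51 genes belonged to the large subunit, 26 to the small subunit and 1, MRPS36, to neither. MRPL3, a relative of a bacterial protein that reaches towards the peptidyl transferase centre, was the highest of all 78, with 414, 377 and 350 TPM (380 ± 32.4, SD, n = 3). MRPL51, which has no bacterial relative, followed with 302, 295 and 281 TPM (293 ± 10.8). These ranges did not overlap each other, nor did they overlap those of the genes below them. MRPL24, of the bacterial set, reached 246, 253 and 238 TPM (245 ± 7.69), and MRPL37, found only in mitochondria, 263, 249 and 216 TPM (243 ± 24.1). MRPL24 and MRPL37 differed by less than their spread. MRPL18, which in the bacterial ribosome has a counterpart that binds 5S RNA, had 234, 229 and 200 TPM (221 ± 18.4), and MRPL14, whose bacterial relative lies at the subunit interface, had 169, 179 and 159 TPM (169 ± 9.90).

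At the low end of the large subunit stood MRPL53, MRPL46, MRPL2, MRPL38, MRPL42 and MRPL12. MRPL42, a mitochondria-specific subunit, was the lowest of them whose exons were nearly its own (1.81% shared), at 18.2, 18.1 and 17.1 TPM (17.8 ± 0.643). This low TPM came from many reads, 1495, 1528 and 1191, divided by a length of 15554 bases for a protein of 142 residues. MRPL51, the gene with the second highest TPM, had 1426, 1432 and 1128 reads over 895 bases. MRPL12, whose bacterial relative forms the stalk that contacts translation factors, had 18.3, 23.7 and 23.3 TPM (21.8 ± 3.002), and its lowest value lay just above the highest of MRPL42. The remaining 4 lay between 0.108 and 4.82 TPM and are described with the shared exons.

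The highest small subunit gene was MRPS34, a mitochondria-specific protein, with 236, 241 and 175 TPM (217 ± 37.05). MRPS21, of the bacterial set, had 189, 172 and 188 TPM (183 ± 9.68). Their ranges overlapped because replicate 3 of MRPS34 fell below 2 of the MRPS21 values. MRPS26, another mitochondria-specific protein, had a mean of 140 ± 12.5 TPM, MRPS16 139 ± 8.16 TPM and MRPS7, a protein of the head of the subunit, 136 ± 16.7 TPM. These means lay within each other's spread. MRPS2, related to a bacterial protein at the back of the subunit, had 133, 134 and 92.8 TPM (120 ± 23.5), with replicate 3 well apart from the others. The lowest were MRPS24, MRPS5, MRPS28, MRPS17 and MRPS25, all with shared exons, and MRPS33, a mitochondria-specific protein, which had 21.3, 20.8 and 21.6 TPM (21.2 ± 0.440) and no shared exon.

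Large subunit genes had the higher median level in every replicate when all genes of the set were counted. The 5 ribosomal subunit genes with other symbols, described below, lay outside the naming rule and were not counted. Most of them belong to the small subunit, namely AURKAIP1 (207 TPM), DAP3 (202 TPM), CHCHD1 (62.9 TPM) and PTCD3 (47.1 TPM). GADD45GIP1 (67.8 TPM) belongs to the large subunit. The naming rule thus left out mainly small subunit genes, and the medians were not computed with them. The medians of the means were 77.8 TPM for the 51 large and 52.6 TPM for the 26 small subunit genes, and on the log2(TPM + 1) scale the medians differed by 0.42, 0.66 and 0.70 in replicates 1, 2 and 3 (0.59 ± 0.15, SD, n = 3). The order turned when the genes with shared exons were left out. For the remaining 45 large and 20 small subunit genes the medians were 86.9 and 104 TPM, and the log2 difference was -0.26, -0.26 and -0.17 (-0.23 ± 0.05). Shared exons were found in 6 large and 6 small subunit genes, so they took a larger portion of the smaller group. Dividing the reads by the length of the canonical transcript also turned the order, to -0.10 ± 0.07. Dividing by the unshared part of the longest transcript, over genes with at least 200 unshared bases, left the large subunit higher by 0.67 ± 0.12. The direction thus depended on how shared exons and length were treated, and since genes are not replicates no p-value is given.

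**Figure D2:**
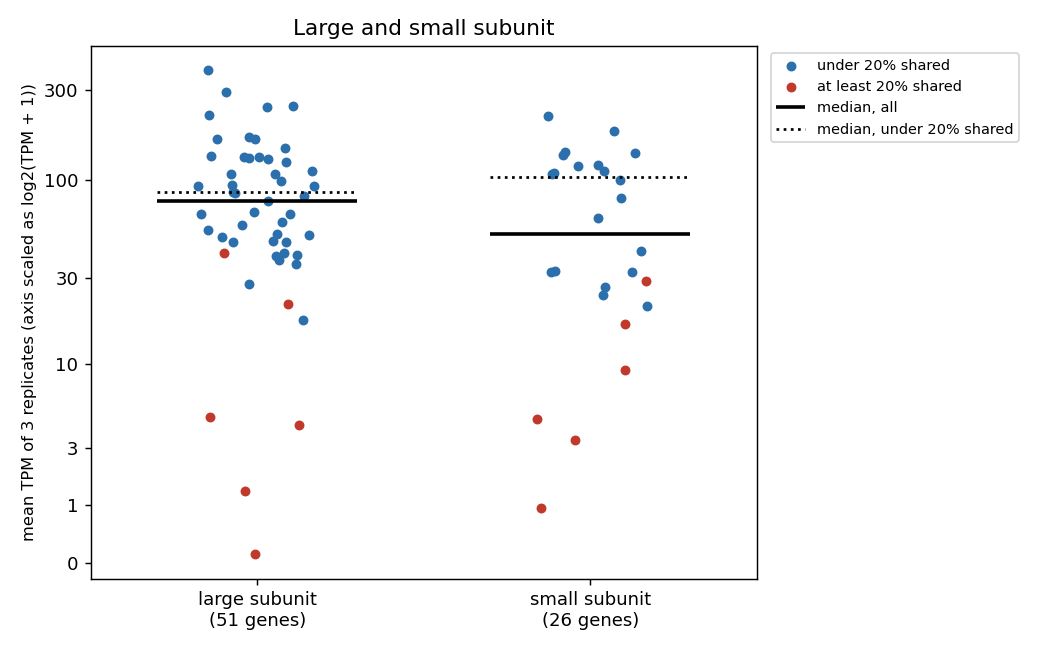
Mean TPM over 3 replicates of each large (51) and small (26) subunit gene of the set, on an axis scaled as log2(TPM + 1). Points are spread sideways at random for legibility. Red points mark genes sharing at least 20% of the canonical transcript with another gene on the same strand. The solid line, the median of all genes, is higher for the large subunit (77.8 against 52.6 TPM), and the dotted line, the median without red points, is higher for the small subunit (104 against 86.9 TPM).

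The lowest genes of the set were those that share exons with another annotated gene. Where exons of 2 genes overlap on the same strand, a read in the overlap cannot be given to either gene without a choice by the counting program. At least 20% of the canonical transcript lay in exons of another gene on the same strand for 12 of 78 genes (15.4%, against 9.08% of all protein-coding genes). The same held for 12 of 74 nuclear-encoded respiratory chain genes, a similar share, and for 5 of 79 cytosolic ribosomal protein genes. The 12 mitochondrial ribosomal protein genes had a median of 4.73 TPM (range 0.108 to 40.8), while the other 66 had a median of 90.1 TPM and ran from 17.8 to 380. The log2 medians of the 66 and the 12 differed by 4.01, 3.78 and 3.87 in the 3 replicates (3.88 ± 0.12). Below 10 TPM were 8 of the 12 and 0 of the 66. Over all nuclear protein-coding genes, 88.2% of 1819 genes with shared exons and 55.3% of 18214 without were below 10 TPM. The 1819 genes, with a median of 0.068 TPM, include overlapping loci such as URGCP-MRPS24, which joins MRPS24 to its neighbour and had 0 reads. How far such loci make up this difference was not tested, so it cannot be set beside the pattern in the 78 genes. The 9 lowest mitochondrial ribosomal protein genes all had shared exons.

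MRPL53, a mitochondria-specific large subunit protein at chr2:74471982-74472687 on the minus strand (hg38), was the extreme case. Its levels were 0, 0.323 and 0 TPM, from 0, 1 and 0 reads, and a count of 3 reads would have been 0.995 TPM in replicate 1 and 1.17 TPM in replicate 3. Of its canonical transcript 99.2% lay in exons of CCDC142, a neighbouring gene on the same strand, which had 6.91, 8.87 and 6.50 TPM. MRPS24, the mitochondrial relative of a bacterial protein at the entry of the messenger RNA channel, lies at chr7:43866558-43869893 on the minus strand and had 1.65, 0.749 and 0.388 TPM from 15, 7 and 3 reads. Its transcript was 90.9% shared with URGCP-MRPS24, a readthrough gene that joins it to its neighbour, and that readthrough gene had 0 reads in each replicate.

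MRPL46, a mitochondria-specific protein of the large subunit, had 1.33, 1.39 and 1.44 TPM with 73.4% of its transcript shared (chr15:88459477-88467390, minus strand). MRPS5, whose bacterial relative is known for an effect on the accuracy of decoding, had 3.20, 4.28 and 2.69 TPM with 97.1% shared (chr2:95085369-95122006, minus strand). Every value of both genes was far below the 17.8 TPM of the lowest gene with little sharing. MRPL38, a mitochondria-specific protein, had 5.34, 6.29 and 2.81 TPM at 94.3% shared. MRPL2, related to a core bacterial protein needed for peptide bond formation, had 4.39, 4.73 and 3.69 TPM at 52.1% shared. MRPS28 had 3.18, 4.86 and 5.88 TPM at 56.2% shared. These 3 genes overlapped in range and rested on 14 to 46 reads a library.

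The other 5 were higher. MRPS17 had 8.30, 10.2 and 9.13 TPM (29.4% shared), MRPS25, a mitochondria-specific protein, 15.2, 22.9 and 12.4 TPM (43.4%), and MRPS6 32.5, 30.04 and 23.9 TPM (33.1%). MRPL12 kept 21.8 TPM although 69.5% of its transcript was shared, and MRPL19, at 22.3% shared, had the highest mean of the 12, 40.8 ± 2.26 TPM. MRPL30, just under the limit at 12.7%, had nearly the same mean of 40.9 ± 3.32 TPM. For 9 of the 12 the gene holding most of the overlap, in most cases a readthrough or an unnamed locus, had 0 reads in all 3 replicates. MRPL38 and MRPL46 had such partners with at most 3 reads, and 1 such partner, CCDC142 of MRPL53, had more. How the counting treated reads in overlaps is not given in the sources used here, and its part in these low levels was not tested.

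**Figure D3:**
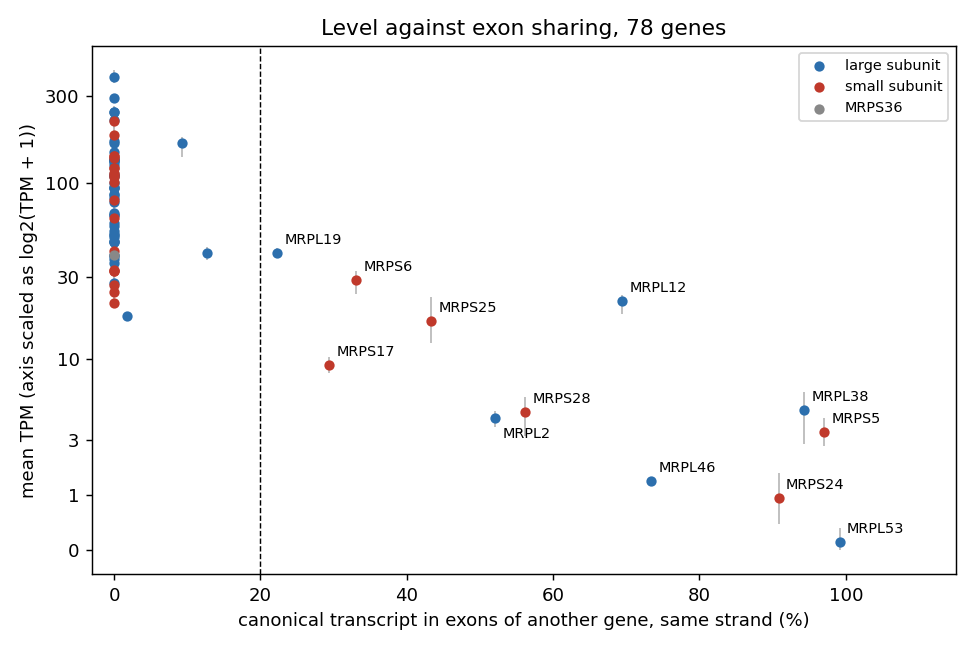
Mean TPM (y axis scaled as log2(TPM + 1), bars from the lowest to the highest of 3 replicates) against the percentage of the canonical transcript that lies in exons of another gene on the same strand, for 78 genes. To the left of the dashed line at 20% no gene is below 17.8 TPM, and to its right the 12 named genes run from 0.108 to 40.8 TPM.

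Overlap on the opposite strand went with no such low levels. At least 20% of the canonical transcript faced exons on the other strand in 7 genes, MRPS34, MRPL9, MRPL4, MRPS9, MRPS18A, MRPS18C and MRPS22, named here after their values were seen. Their means ran from 24.5 to 217 TPM with a median of 113 TPM. MRPS18C, with 83.6% of its transcript so overlapped, had 32.6, 33.3 and 31.1 TPM. Whether reads were counted by strand is not given in the sources used here. Genes named as pseudogenes of the set took few reads. The 81 such genes, named after 36 of the members, held 41, 59 and 31 reads in all, 69 of them had 0 reads, and none reached 10 TPM.

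The TPM of a gene also depends on the length that divides its reads. In the deposited table this matched the longest annotated transcript, less 1 base per exon. For 6 of 78 genes (7.69%, against 2.36% of protein-coding genes at or above 1 TPM) this length was at least 3 times that of the canonical transcript. The related sets had larger shares, with 16 of 74 nuclear-encoded respiratory chain genes and 18 of 79 cytosolic ribosomal protein genes. The ratio was 5.64 for MRPL46, 5.44 for MRPS22, 4.22 for MRPS6, 3.55 for MRPL27, 3.29 for MRPL21 and 3.18 for MRPL32. With the canonical length, on the same TPM scale, the level of MRPS22, a mitochondria-specific small subunit protein, went from 24.5 to 133 and its rank among the 78 from 66 to 29. MRPL21, related to a bacterial protein of the large subunit, went from 65.9 to 217 (rank 41 to 9) and MRPL27, which has a bacterial relative near the peptidyl transferase centre, from 57.9 to 206 (rank 44 to 11). In all 10 genes rose by at least 10 ranks. MRPL3 and MRPL51 stayed in ranks 1 and 2, and MRPL53 and MRPS24 in the last places. Gene totals do not show which transcripts the cells used.

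**Figure D4:**
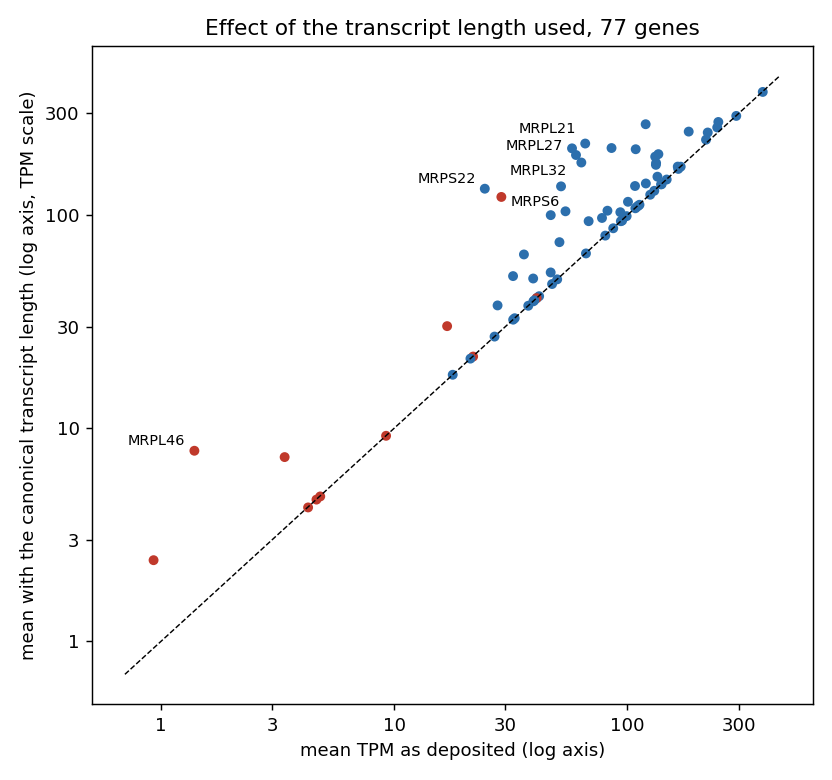
Mean level of 77 genes with the canonical transcript length (y axis) against the deposited mean TPM (x axis), both log axes on the TPM scale; MRPL53, with 1 read in all, is left out, red points share at least 20% of the canonical transcript on the same strand, and the dashed line marks equal values. Most genes lie on or close to the line, and the 6 named genes, whose deposited length is at least 3 times the canonical one, lie farthest above it (MRPS22 at 24.5 and 133).

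Genes with a bacterial relative were higher than the mitochondria-specific ones. The 47 of the first kind, 30 in the large and 17 in the small subunit, had a median of 85.5 TPM, and the 30 of the second, 21 and 9, a median of 53.1 TPM. The log2 medians differed by 0.71, 0.62 and 0.76 in the 3 replicates (0.70 ± 0.07, SD, n = 3). The difference was 0.70 within the large and 0.94 within the small subunit, and 0.56 without the genes that share exons. With canonical lengths it shrank to 0.26, in the same direction. Both kinds were found from one end of the range to the other, with MRPL3 and MRPL51 at the top and MRPS24 and MRPL53 at the bottom.

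Some symbols do not name the place of the protein. Human mitochondria have 3 relatives of bacterial protein S18, of which MRPS18B and MRPS18C sit in the small subunit and MRPS18A in the large. MRPS18B was the highest, with 111, 101 and 89.8 TPM (101 ± 10.6). MRPS18A had 67.4, 69.6 and 62.3 TPM (66.4 ± 3.75), and MRPS18C 32.6, 33.3 and 31.1 TPM (32.3 ± 1.104). The 3 ranges were separate. MRPS30, also a large subunit protein in spite of its symbol, had 53.0, 57.4 and 45.3 TPM (51.9 ± 6.15). MRPS36, a subunit of the alpha-ketoglutarate dehydrogenase complex and not of the ribosome, had 36.0, 40.0 and 42.5 TPM (39.5 ± 3.27) and was 1 of 8 genes in the set that were highest in replicate 3. Grouping by symbol in place of protein position left the large minus small difference at 0.66.

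Replicates were close for most genes. The median SD of log2(TPM + 1) between the replicates was 0.126, and without replicate 3 it was 0.065. It was 0.162 over protein-coding genes at or above 1 TPM, whose median level was lower (24.9 against 67.3 TPM). In the related sets, at higher levels, it was 0.112 for respiratory chain subunits and 0.094 for cytosolic ribosomal proteins. A chi-square test of the recovered reads against the protein-coding total, which covers counting error only, called 25 of the 77 genes tested (32.5%, against 35.0% of 12359 protein-coding genes) at a Benjamini-Hochberg adjusted p under 0.05 over all genes tested. The count was 11 without replicate 2, 11 without replicate 3 and 21 without replicate 1. Among genes with at least 10 TPM the widest spread was that of MRPS25 (SD 0.42), followed by MRPL23, related to a protein at the bacterial tunnel exit, with 29.9, 33.3 and 20.01 TPM (0.37), and MRPS2 (0.30). MRPS25 was high in replicate 2 alone, whereas MRPL23 and MRPS2 were low in replicate 3. The narrowest was MRPL58, a peptidyl-tRNA hydrolase built into the large subunit, with 110, 112 and 112 TPM (0.011), then MRPL43, a mitochondria-specific protein, with 47.8, 46.8 and 46.1 TPM (0.025), and MRPS33 (0.029).

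Replicate 3 was the lowest for 61 of 78 genes (78.2%, against 78.5% of protein-coding genes at or above 1 TPM). The median difference between replicate 3 and the mean of the others was -0.18 on the log2 scale, and -0.22 over all protein-coding genes at or above 1 TPM. When each library was rescaled to its nuclear protein-coding total the median difference was 0.025, and -0.033 over protein-coding genes. Replicate 3 was then lowest for 28 of the 78 genes. The matching share over all protein-coding genes is not given.

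Many of the genes start close to another gene that runs the other way. The canonical start of 26 of 78 genes (33.3%, against 9.46% of all protein-coding genes) lay within 1000 bases of the start of a protein-coding gene on the opposite strand pointing away. The share was 25.6% against 7.81% within 500 bases and 35.9% against 10.5% within 2000 bases. The median distance was 192 bases, with a range of 45 to 990. MRPL46 and MRPS11, from the large and the small subunit, face each other at 320 bases. MRPS11 had 32.4, 37.9 and 26.7 TPM and MRPL46 1.39 ± 0.0567 TPM, but 73.4% of the MRPL46 transcript was in shared exons and none of that of MRPS11.

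The neighbours were mostly the lower gene of the pair. The partner had the higher mean in 6 of the 26, and both genes were at or above 10 TPM in 15. These counts were not made over all head-to-head protein-coding genes, so whether the set differs from them was not tested. At or above 10 TPM were 89.7% of the 78 genes against 41.7% of all protein-coding genes. Of the 6, named after their values were seen, MRPL18 at 221 TPM faced TCP1, a subunit of the cytosolic chaperonin, at 590.4 TPM, and MRPL49 at 77.8 TPM faced FAU, which encodes a cytosolic ribosomal protein, at 243 TPM. In 2 more, MRPL57 with SKA3 and MRPL43 with TWNK, the mitochondrial DNA helicase, both genes lay between 46.9 and 59.1 TPM. TWNK was above MRPL43 in replicates 1 (52.6 against 47.8 TPM) and 2 (48.6 against 46.8) and below it in replicate 3 (40.4 against 46.1). The last 2 were the low, exon-sharing genes MRPL2 and MRPL46.

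**Figure D5:**
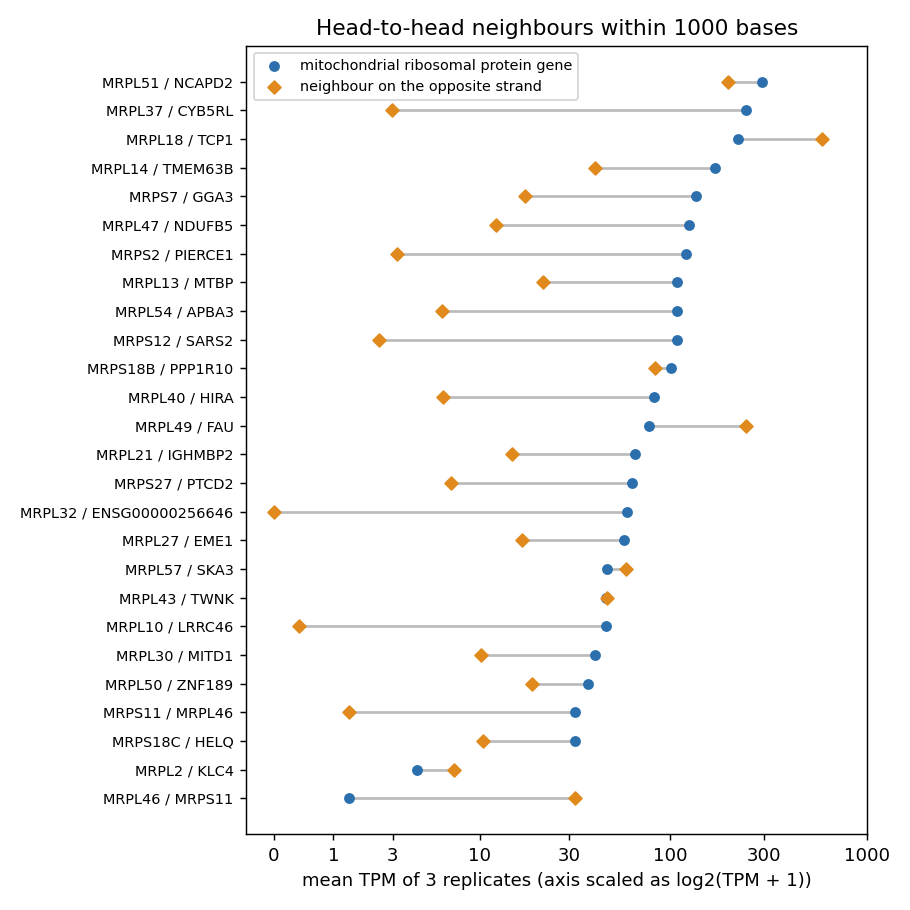
Mean TPM over 3 replicates (axis scaled as log2(TPM + 1)) of the 26 genes with a head-to-head neighbour within 1000 bases (circles) and of that neighbour (diamonds), ordered by the circle; MRPL46 and MRPS11 appear in both roles. The diamond lies to the right of the circle in 6 rows, among them MRPL18 with TCP1 at 221 and 590.4 TPM.

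A short sequence recurred at the starts of these genes. RefSeq promoter sequences, 250 bases before to 50 bases after the start in build GRCh38.p14, matched 69 of the 78 symbols. The letters AAGATGGC, the core of the motif known for the factor YY1, were present on either strand in 20 of 69 (28.99%), in 18.03% of 61 respiratory chain promoters, in 5.77% of promoters of genes at or above 1 TPM and in 3.97% of all 15345 promoters. CCGGAAGT, known for factors of the ETS family, was present in 15.9%, against 14.8% of the respiratory chain promoters, 9.41% of those at or above 1 TPM and 6.32% of all. The letters GCGCA and GCGC with any base between them, known for NRF1, were present in 11.6%, below the 24.6% of the respiratory chain promoters and the 12.4% of those at or above 1 TPM, and above the 8.60% of all. In the 20 promoters there were 21 matches of AAGATGGC, 17 of them on the strand of the gene and 16 within 50 bases of the start, with a median position 9 bases after it. In 12 of the 20 the letters ATG inside the match were an annotated start codon of the gene, as in 252 of all 609 promoters with a match. The match there is thus also coding sequence for methionine followed by alanine. The windows below are 30 bases long and are shown for the 9 genes described above that hold a match on their own strand, with the match in capitals, written on the strand of the gene:
MRPL51 (chr12:6493223-6493252, minus strand): gggtaaggcccAAGATGGCtgtcttcgcct
MRPS7 (chr17:75261887-75261916, plus strand): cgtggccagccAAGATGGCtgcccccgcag
MRPS18B (chr6:30617852-30617881, plus strand): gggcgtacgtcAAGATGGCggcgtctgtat
MRPS18A (chr6:43687764-43687793, minus strand): gtaggtttttgAAGATGGCggccctcaagg
MRPS30 (chr5:44808949-44808978, plus strand): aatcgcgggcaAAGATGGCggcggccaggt
MRPL42 (chr12:93467511-93467540, plus strand): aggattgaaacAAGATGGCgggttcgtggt
MRPL38 (chr17:75904860-75904889, minus strand): aggccggagggAAGATGGCggcgccctggt
MRPL46 (chr15:88467362-88467391, minus strand): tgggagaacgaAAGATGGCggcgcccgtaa
MRPS24 (chr7:43869480-43869509, minus strand): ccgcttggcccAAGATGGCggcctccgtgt

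These windows came from genes over the whole range of levels, from MRPL51 at 293 TPM to MRPS24 at 0.929 TPM. The median was 64.9 TPM for the 20 genes with a match and 86.9 TPM for the 49 without. A match is a description of the letters and does not show that a factor bound there.

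Most genes on further lists for mitochondrial translation also reached 1 TPM. Aminoacyl-tRNA synthetases and tRNAs were not on these lists. All 5 ribosomal subunits with other symbols were at or above 1 TPM, led by AURKAIP1 (207 ± 29.8 TPM) and DAP3 (202 ± 19.9 TPM), small subunit proteins known also by other roles, while CHCHD1 (62.9 ± 3.74 TPM) and PTCD3 (47.1 ± 3.13 TPM) were the lowest. Of 30 assembly factors 28 reached 1 TPM and 25 reached 10 TPM. C1QBP, an acidic matrix protein, had 818 ± 46.3 TPM, and NDUFAB1, the mitochondrial acyl carrier protein, 192 ± 21.0 TPM. At the other end MRM2, a methyltransferase of the large ribosomal RNA, had 0.362 ± 0.0886 TPM with 99.8% of its transcript shared, and GTPBP6, which lies in identical copies on the X and Y chromosomes, had 0 reads. Of 18 translation factors 17 reached 1 TPM and 14 reached 10 TPM, with TUFM, the elongation factor that delivers aminoacyl-tRNA, at 264 ± 31.8 TPM and SLIRP, an RNA-binding protein, at 202 ± 9.80 TPM. The lowest were PDF, the peptide deformylase, at 2.28 ± 0.441 TPM (79.3% shared) and TSFM, the exchange factor of TUFM, at 0.858 ± 0.102 TPM (94.7% shared).

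Against related sets the 78 genes lay lower than both. The 79 genes for cytosolic ribosomal proteins had a median of 778 TPM, 11.6 times that of the mitochondrial set, and took 7.78%, 7.57% and 7.10% of TPM in the 3 replicates. On the log2 scale the mitochondrial median differed by -3.41, -3.49 and -3.54 (-3.48 ± 0.06). The 74 nuclear-encoded respiratory chain subunits, among them the partners of the proteins that mitochondrial ribosomes make, had a median of 119 TPM, 1.76 times the mitochondrial ribosomal median, and the log2 difference was -0.76 ± 0.03. The same order was seen in all 3 replicates. Deposited lengths were used here, and in both comparison sets a larger share of genes had a length at least 3 times the canonical one. The comparison was not repeated with canonical lengths. The ribosomal RNAs of the mitochondrion, MT-RNR1 and MT-RNR2, had 455, 728 and 711 TPM and 760, 835 and 1039 TPM, after a library preparation that depletes ribosomal RNA, so these do not measure their true amounts.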

How the data were processed

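Total RNA of 3 empty-vector MCF10A replicates was sequenced after ribosomal RNA depletion. The authors deposited TPM values per gene; the submitters' processing notes name fastp, STAR, MultiQC, hg38 and GRCh38.p14, and the study's methods name Seq2science for mapping and counting. Versions, the treatment of reads in overlapping genes and the use of strand are not given in the sources used here. The longest-transcript length in GENCODE 44, less 1 base per exon, was taken as the length behind each TPM. TPM times this length, divided by its smallest step taken as 1 read, gave whole reads for 100% of genes (tolerance 0.01). The depth rests on that step. Exon sharing was computed over Ensembl canonical transcripts. Levels were compared as log2(TPM + 1) medians per replicate, with mean ± SD, using Python 3.11.15, pandas 2.3.3, numpy 2.4.6 and scipy 1.17.1. The chi-square test covered the 12359 protein-coding genes with at least 15 reads and was tested on simulated data. There was 1 condition and so no group test.

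The genes and lists were chosen with earlier results of these data known. Named genes were all with at least 20% shared exons, the 6 highest and 6 lowest of each subunit, the 3 widest and 3 narrowest spreads at 10 TPM or more, the S18 family, MRPS30, MRPS36, pairs facing each other, and the 2 highest and 2 lowest of each translation list. Genes named outside this rule were chosen after their values were seen. Alternatives left out each replicate, rescaled TPM to nuclear protein-coding genes, and changed pseudocounts, cutoffs, lengths, the sharing limit and the distance limit. Exon sharing and subunit assignments are annotation and textbook knowledge, not measurements.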

Additional observations from a re-analysis of the deposited data

How the results depend on the processing

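Results that turned direction were the large minus small subunit difference of 0.59 on the log2 scale, which was -0.23 without the genes sharing exons and -0.10 with canonical transcript lengths (an alternative chosen after seeing the data), and the -0.18 of replicate 3 against the others, which was 0.025 after rescaling to nuclear protein-coding genes, a step that moved the genes by a median of 0.25. The bacterial minus mitochondria-specific difference of 0.70 was 0.56 without shared exons, 0.94 in the small subunit and 0.26 with canonical lengths. The gap of 3.88 between genes with little and with much sharing was 4.11 with a pseudocount of 0.1, 3.72 at a limit of 10%, 4.27 at 50%, 1.96 with either strand, where 19 in place of 12 genes counted, and 3.75 with canonical lengths. The difference from the respiratory chain, -0.76, was -0.70 without shared exons. The cause was not tested. Leaving out each replicate gave 0.54 to 0.68 for the subunits, 0.67 to 0.74 for the bacterial set, 3.82 to 3.94 for sharing, 0.065 to 0.150 for the median SD (lowest without replicate 3), -0.19 to -0.16 for replicate 3, -0.77 to -0.74 against the respiratory chain, -3.51 to -3.45 against cytosolic ribosomal proteins, 76 to 77 genes at 1 TPM and 11 to 21 genes by chi-square, the lowest without replicate 2 or without replicate 3. Of 85 values under alternatives, 69 kept direction and size. Size was judged by the spread between replicates. For counts, and for the median SD and the replicate 3 difference, which have no such spread, it was judged within 1.5 times. No paired analysis was possible because all samples belong to 1 group. Reads were fewest for MRPL53, MRPS24, MRPS28, MRPL2, MRPL38 and MRPL46, at 0 to 46 a library. MRPS5, also under 10 TPM, had 120, 165 and 86 reads. All 8 genes under 10 TPM had shared exons.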
